A study of Mus musculus with 18 samples.

Results

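Transcripts of 10 genes for surface proteins that mark plasma cells or stages of B cells were followed across sorted B cells of the mouse. The genes were Sdc1, Slamf7, Cd28, Cd93, Cd9, Cd200, Cd27, Ly6d, Epcam and Cd320. They were taken by symbol from a list drawn up with earlier results of these data known, and all 10 were found among the 21761 genes of the expression table. Levels are in FPKM, the fragments counted on a gene scaled to exon length and to the total of the library over all listed genes. Genes of different length can thus be compared within a library. Between libraries, levels are shares of a total, so a very abundant transcript lowers those of all other genes. Another scaling is among the alternatives given below. There were 18 libraries, 3 for each of 3 cell types in 2 genotypes. Naive B cells (nB; B220+ Fas- GL7-) came from lymph nodes of unimmunized mice. Germinal center B cells (GCB; B220+ Fas+ GL7+) that bound the antigen phycoerythrin came from lymph nodes, and bone marrow plasma cells (BMPC) were sorted as CD138+. Both were taken 30 days after immunization with phycoerythrin in complete Freund's adjuvant. The mice carried loxP sites around catalytic exons of both copies of Dnmt3a and Dnmt3b, the de novo DNA methyltransferases, were of a mixed B6 and 129S4 background and were 8 to 12 weeks old. Dnmt3-deficient mice also carried a Cre recombinase that acts within the B lineage from the pro-B cell stage. Dnmt3-sufficient littermates carried the loxP sites and no Cre. Each GCB sample pooled 2 mice.

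B cells that become plasma cells trade receptors that sense antigen and T cell help for surface proteins that hold them in bone marrow and receive survival signals there. Syndecan-1, the protein of Sdc1 and the CD138 antigen, carries heparan sulfate chains that bind survival ligands, while CD28 and CD93 are known to support the persistence of plasma cells. The germinal center can lie between the naive and the plasma cell state. Labels of BMPC name CD138 and not phycoerythrin binding, so descent of these BMPC from the GCB sorted here is not shown.

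The cell types carried most of the transcripts that define them. The summed FPKM of 6 plasma cell markers lay between 18880 and 51397 in the BMPC libraries, 1173 and 1520 in GCB, and 311 and 511 in nB. Jchain made up most of the BMPC sums, with means of 20649 (sufficient) and 38467 (deficient). By the limma test given below, 5 of the 6 markers were higher in BMPC than in nB in each genotype. Irf4 had a lower mean in deficient BMPC (14.2) than in deficient nB (24.3). Pax5, the transcription factor that maintains B cell identity, was at 0 in all 6 BMPC libraries. Reads on listed genes came to 2196198, 3803197 and 3629318 in sufficient BMPC and 1632925, 1355231 and 2265945 in deficient BMPC. These were fewer than in the other libraries, which had 6692516 to 8987922 (nB) and 7644544 to 8903872 (GCB). Levels near 0 are therefore known less precisely in BMPC, and least so in deficient replicates 1 and 2. Whole-gene Dnmt3a ranged from 2.24 to 5.18 FPKM in nB and Dnmt3b from 0.521 to 8.15, and neither separated the genotypes there. In GCB Dnmt3b was at 0.805, 0.744 and 1.10 in deficient libraries, above the 0.676, 0.303 and 0 of sufficient ones. Dnmt3a in GCB and both genes in BMPC overlapped between the genotypes, with Dnmt3b at up to 9.29 in deficient and 1.37 in sufficient BMPC. These values do not check the genotype, since Cre removes only the catalytic exons. A difference in a bulk level cannot tell fewer cells with a transcript from less of it per cell.

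Positions are those of build mm9. The 250 bases ahead of the RefSeq transcription start are printed for 5 genes whose level differed between BMPC and nB. They show how unlike these promoters are in CpG, the dinucleotide that DNA methyltransferases act on. CpG is in capitals, and the sequences are read 5′ to 3′ on the strand of the gene. Sequences are from RefSeq, whose table was made on GRCm38.p6, and each matched mm9 exactly once. Promoters of 7 of the 10 genes were in the table, with 2 start sites for Cd320.
Sdc1: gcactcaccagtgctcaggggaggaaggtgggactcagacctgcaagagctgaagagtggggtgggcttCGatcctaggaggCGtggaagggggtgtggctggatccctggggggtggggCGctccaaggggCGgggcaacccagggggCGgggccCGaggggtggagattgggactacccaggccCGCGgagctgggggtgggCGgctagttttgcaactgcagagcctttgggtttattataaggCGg
Cd9: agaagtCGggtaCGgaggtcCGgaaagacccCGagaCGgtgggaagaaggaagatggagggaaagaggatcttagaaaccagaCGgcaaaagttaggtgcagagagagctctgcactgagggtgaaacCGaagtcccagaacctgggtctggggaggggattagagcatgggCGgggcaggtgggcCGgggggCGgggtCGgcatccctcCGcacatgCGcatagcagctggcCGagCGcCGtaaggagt
Epcam: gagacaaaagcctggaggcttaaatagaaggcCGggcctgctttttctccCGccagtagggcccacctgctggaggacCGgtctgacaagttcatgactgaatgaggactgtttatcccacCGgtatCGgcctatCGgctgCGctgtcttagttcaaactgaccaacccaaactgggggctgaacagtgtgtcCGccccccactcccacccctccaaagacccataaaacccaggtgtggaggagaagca
Slamf7: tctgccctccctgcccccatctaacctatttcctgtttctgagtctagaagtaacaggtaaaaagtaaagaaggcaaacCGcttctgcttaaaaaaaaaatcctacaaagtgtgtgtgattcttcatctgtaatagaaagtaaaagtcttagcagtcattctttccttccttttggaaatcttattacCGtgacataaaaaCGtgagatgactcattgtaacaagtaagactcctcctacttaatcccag
Cd200: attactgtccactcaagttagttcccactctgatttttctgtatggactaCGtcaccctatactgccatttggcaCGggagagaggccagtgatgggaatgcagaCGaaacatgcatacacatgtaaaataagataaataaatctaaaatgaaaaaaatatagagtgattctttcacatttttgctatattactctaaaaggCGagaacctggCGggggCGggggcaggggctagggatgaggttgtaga
They lie at chr12:8777952-8778201 (Sdc1, plus strand), chr6:125444779-125445028 (Cd9, minus), chr17:88035069-88035318 (Epcam, plus), chr1:173579131-173579380 (Slamf7, minus) and chr16:45409167-45409416 (Cd200, minus). The windows of Cd9, Sdc1 and Epcam held 16, 10 and 8 CpG, those of Cd200 and Slamf7 held 6 and 3, and the median of 32851 promoters was 6. Cd27 had 5 CpG and the 2 start sites of Cd320 had 5 and 22. The letters CAGCTG and CAGGTG, forms of the E-box read by E2A, were searched on both strands. Cd9 held 1 of each, Epcam held 2 copies of CAGGTG, and the other 3 printed windows held neither. Of all promoters, 13.0% held CAGCTG and 17.2% held CAGGTG. Neither the PU.1-IRF composite motif (2.3% of all promoters) nor TGACGTGG (0.563%), the core bound by the plasma cell factor XBP1, was in any window of the 10 genes. GAAAGT, part of the site of BLIMP1, was found once in Slamf7 and in 12.3% of all promoters. A match describes these letters and is not a bound site, and DNA methylation was not analysed here.

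Between naive and plasma cells most of the 10 genes changed, and mostly upward. A gene is said to rise or fall where the adjusted p of limma on log2(FPKM + 1) was at most 0.05 and the change at least 1 on the log2 scale. All 10 genes were among the 11522 tested. In Dnmt3-sufficient cells 6 of the 10 (Sdc1, Slamf7, Cd28, Cd93, Cd9 and Epcam) were higher in BMPC than in nB, where 9.74% of all tested genes were, and 1 (Cd200) was lower, where 27.6% were. The same 6 rose and the same 1 fell in Dnmt3-deficient cells, where 6.85% of all tested genes rose and 30.6% fell. The median change of the 10 was 2.68 and 2.75 in the sufficient and deficient cells, and that of all tested genes was -0.70 and -0.84. Against GCB, 7 of the 10 were higher in sufficient BMPC (Sdc1, Cd93, Cd9, Epcam, Cd28, Cd27 and Ly6d) and 8 in deficient BMPC, which adds Slamf7. None was lower in either. Over all tested genes 6.67% were higher and 20.9% lower in the sufficient comparison, and 6.14% and 26.1% in the deficient one. From nB to GCB 1 of the 10 rose (Slamf7) in each genotype. In that step 1 fell in sufficient cells (Ly6d) and 2 in deficient cells (Ly6d and Cd9). Over all genes 7.22% rose and 6.93% fell in sufficient cells, and 6.31% and 6.61% in deficient cells. These comparisons share the groups they are drawn from, so they are not independent of each other. Sdc1 is included in these counts and medians, although its rise in BMPC was set by the sort on CD138.

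**Figure D1:**
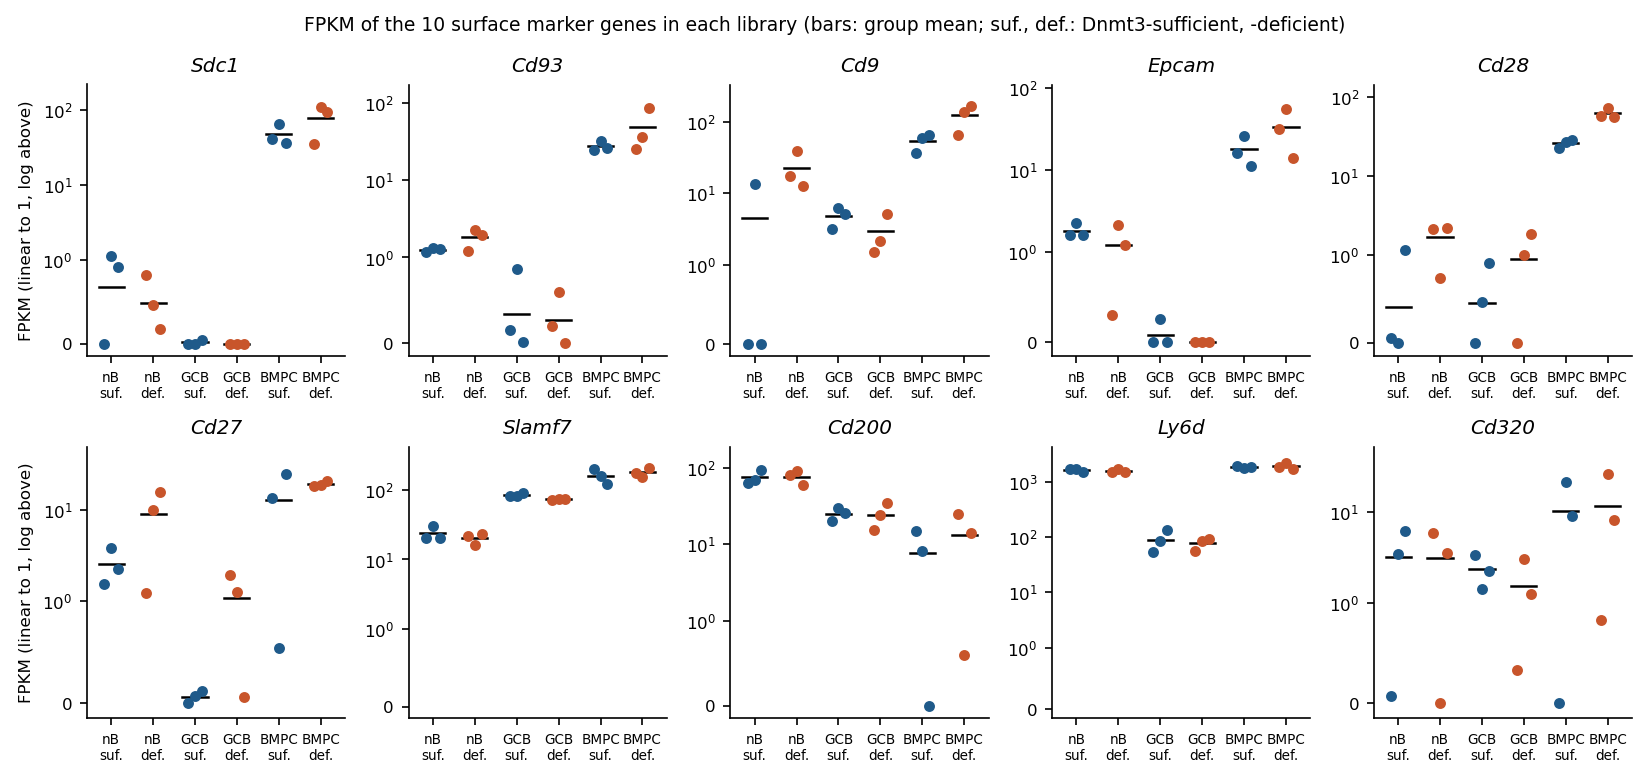
FPKM of each of the 10 genes on the vertical axis (linear to 1, logarithmic above) in each library of the 6 groups, Dnmt3-sufficient in blue and Dnmt3-deficient in orange; each point is 1 library and each bar a group mean. Sdc1, Cd93, Epcam and Cd28 sit at 11.2 FPKM or higher in every BMPC library and at 2.28 or lower in all others, while Ly6d sits at 1477 or higher in nB and BMPC and at 132 or lower in GCB.

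Sdc1 was the gene of the sort. Its FPKM was 40.1, 65.0 and 35.9 in sufficient BMPC and 34.5, 107.7 and 92.6 in deficient BMPC. In nB it was 0, 1.11 and 0.910 (sufficient) and 0.819, 0.466 and 0.171 (deficient). In GCB it was 0, 0 and 0.0387, and 0 in all 3 deficient libraries. Since BMPC were gated on CD138, the high level there is a description of the sort, with log2 changes of 4.87 and 5.61 against nB. Counting libraries at 3 reads where they had fewer, BMPC were at least 398-fold above GCB in sufficient and at least 670-fold in deficient cells. The nB levels lay above GCB in 5 of 6 libraries, but the log2 differences of -0.65 and -0.55 between GCB and nB did not pass.

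Among the genes of adhesion, Cd93 encodes a C-type lectin-like receptor of early B cells and plasma cells. Cd93 was at 24.9, 32.4 and 26.0 FPKM in sufficient BMPC and 25.6, 36.2 and 87.3 in deficient BMPC. The nB libraries had 1.17, 1.34 and 1.27 (sufficient) and 1.23, 2.28 and 1.97 (deficient). In GCB it was 0.152, 0.867 and 0.0178, and 0.199, 0.596 and 0. The 3 cell types did not overlap in either genotype, in the order BMPC, nB, GCB. Cd93 rose 22.0-fold from nB to BMPC in sufficient cells (log2 change 3.66 ± 0.47 SE, limma adjusted p = 1.52e-05) and 27.3-fold in deficient cells (3.99 ± 0.47, adjusted p = 7.45e-06). The difference between GCB and nB did not pass, with adjusted p = 0.310 and 0.121.

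Epcam encodes a homophilic adhesion molecule best known from epithelia. Epcam was at 16.1, 26.4 and 11.2 FPKM in sufficient BMPC and 31.8, 55.9 and 13.9 in deficient BMPC. It stood at 1.59, 2.22 and 1.62 in sufficient nB and 0.304, 2.14 and 1.21 in deficient nB. Of the 6 GCB libraries, 1 sufficient library had 0.254 and the others 0. The order was again BMPC, nB, GCB with no overlap. The rise from nB to BMPC was 9.89-fold in sufficient cells (2.68 ± 0.51, adjusted p = 0.000575) and 27.8-fold in deficient cells (3.86 ± 0.51, adjusted p = 2.15e-05). Deficient BMPC were at least 195-fold above deficient GCB. Of the keratins of simple epithelia, Krt8 was at 0 in all 6 BMPC libraries, and Krt18 was at 3.69 FPKM in deficient replicate 2 and at 0 in the other 5. That library also had the highest Epcam and, at 17.8 FPKM, the highest level of Cldn7, a claudin that binds EpCAM. The part of epithelial cells in the level of Epcam was not tested.

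Cd9 encodes a tetraspanin, a membrane organizer found on marginal zone B cells, B1 cells and plasma cells. Cd9 was at 36.3, 60.2 and 66.1 FPKM in sufficient BMPC and 65.2, 138 and 166.6 in deficient BMPC. In nB it was 0, 13.4 and 0 in sufficient and 17.2, 38.9 and 12.7 in deficient libraries. In the sufficient nB libraries at 0, 3 reads would have given 0.376 and 0.280 FPKM. GCB had 3.20, 6.15 and 5.15 (sufficient) and 1.51, 2.18 and 5.13 (deficient), below every deficient nB library. The rise from nB to BMPC was 4.46 ± 0.81 in sufficient cells (adjusted p = 0.000414) and 2.42 ± 0.81 in deficient cells (adjusted p = 0.0253). The deficient call was lost without nB replicate 1 or 3 or BMPC replicate 2 or 3 (adjusted p 0.0626 to 0.0964), with quality weights (0.164) and with voom (0.0541). From nB to GCB Cd9 fell by 2.56 on the log2 scale in deficient cells (adjusted p = 0.0436) and differed by 1.23 in the other direction in sufficient cells (adjusted p = 0.375). That fall was lost whenever any 1 of the 6 libraries was left out (adjusted p 0.0572 to 0.172), and in sufficient cells Cd9 instead rose in this step without nB replicate 2 (2.51, adjusted p = 0.00986). The difference between the genotypes in this step did not pass (-3.78 ± 1.14, adjusted p = 1). Exons of Cd9 overlap the lincRNA Gm16749 on the opposite strand, and the strand of counting is not given in the sources used here, so reads of both cannot be told apart.

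Cd28 and Cd27 encode costimulatory receptors of T cells that plasma cells also carry. Cd28 was at 22.9, 26.7 and 28.6 FPKM in sufficient BMPC and 58.2, 72.2 and 56.8 in deficient BMPC. Elsewhere it was 0.0533, 0 and 1.17 in sufficient nB, 2.16, 0.737 and 2.19 in deficient nB, 0, 0.467 and 0.906 in sufficient GCB, and 0, 1.01 and 1.86 in deficient GCB. The 4 groups of nB and GCB overlapped one another and lay below every BMPC library. The rise from nB to BMPC was 64.0-fold in sufficient cells (4.36 ± 0.49, adjusted p = 4.42e-06) and 36.8-fold in deficient cells (4.60 ± 0.49, adjusted p = 3.01e-06). Cd28 is also a T cell transcript. The summed FPKM of 10 T and NK cell markers was 161 to 338 in sufficient BMPC, 165 to 297 in deficient BMPC and 99.7 to 237 in nB. Of its T cell genes, Cd3g was at 24.5, 112 and 95.9 FPKM in sufficient and 53.9, 98.8 and 99.2 in deficient BMPC, against means of 15.1 and 19.9 in nB. Cd3d had means of 36.5 and 47.4 in BMPC against 9.31 and 7.23 in nB. Cd4 was at 0 in 5 of the 6 BMPC libraries and at 0.111 in the sixth, Cd8a at 0.504 or less, and the NK genes Klrb1c and Ncr1 at 0. Of the others in the list, Lck had lower means in BMPC (32.9 sufficient, 16.2 deficient) than in nB (59.2 and 81.1). Nkg7 had BMPC means of 94.7 (sufficient) and 47.8 (deficient) against 44.6 and 55.4 in nB. Cd3e had 10.3 and 20.4 against 14.6 and 10.02, and Thy1 had 2.41 and 5.47 against 1.66 and 1.35. The part of such cells in the level of Cd28 was not tested.

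Cd27, a member of the TNF receptor family whose ligand is CD70 on other lymphocytes, had libraries that overlapped between each group and the next in the order of mean levels. Cd27 was at 13.4, 0.542 and 24.4 FPKM in sufficient BMPC and 18.3, 18.6 and 20.7 in deficient BMPC. The nB libraries had 1.54, 3.84 and 2.24 (sufficient) and 1.23, 10.1 and 15.6 (deficient). GCB had 0, 0.0674 and 0.122, and 1.92, 1.27 and 0.0584. One sufficient BMPC library was thus below all nB libraries, while deficient BMPC lay above all of them. The difference between BMPC and nB did not pass (1.27 ± 0.86, adjusted p = 0.256 in sufficient cells and 1.44 ± 0.86, adjusted p = 0.195 in deficient cells). Without sufficient BMPC replicate 2, the low library, it passed in sufficient cells (2.49, adjusted p = 0.0115). Cd27 was higher in BMPC than in GCB in both genotypes (2.96 and 3.40, adjusted p = 0.0160 and 0.00621), by at least 68.6-fold in sufficient and 17.7-fold in deficient cells. The sufficient call was lost without BMPC replicate 1 or 3 (adjusted p = 0.0576 and 0.0748).

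Slamf7 encodes a SLAM family receptor, bound by its own kind on neighbouring cells and used as an antibody target in myeloma. Its level was higher at each step from nB to GCB to BMPC. Slamf7 was at 20.6, 30.7 and 20.4 FPKM in sufficient nB and 21.6, 16.4 and 22.9 in deficient nB. GCB had 80.6, 82.2 and 88.4, and 71.8, 74.2 and 73.1. BMPC had 196, 157 and 123, and 176, 154 and 207. No library of a cell type overlapped another cell type. From nB to GCB Slamf7 rose 3.50-fold in sufficient cells (log2 change 1.79, adjusted p = 0.000138) and 3.60-fold in deficient cells (1.81, adjusted p = 0.000136). From GCB to BMPC the change was 0.89 in sufficient cells (95% interval 0.34 to 1.44, adjusted p = 0.0170), under the minimum of 1, and 1.27 in deficient cells (adjusted p = 0.00137). From nB to BMPC it was 2.68 ± 0.26 and 3.08 ± 0.26 (adjusted p = 9.21e-07 and 2.56e-07).

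Cd200 was the gene of the 10 that fell from nB to BMPC. Its protein is a ligand that restrains myeloid cells through the CD200 receptor. Cd200 was at 62.3, 69.9 and 93.7 FPKM in sufficient nB and 79.2, 91.5 and 58.4 in deficient nB. GCB had 19.8, 29.6 and 25.4, and 15.1, 23.8 and 34.2, all below nB. BMPC had 14.8, 8.21 and 0, and 24.8, 0.599 and 14.0, overlapping GCB in deficient cells and lying below it in sufficient cells. The level fell 9.83-fold from nB to BMPC in sufficient cells (-3.84 ± 0.92, adjusted p = 0.00361) and 5.81-fold in deficient cells (-3.16 ± 0.92, adjusted p = 0.0126). Neither passed in fits of the nB and BMPC libraries of a genotype alone (adjusted p = 0.0509 and 0.0876), and the deficient call was lost without BMPC replicate 2 (-1.95, adjusted p = 0.0668). With single libraries left out, the sufficient change ran from -4.63 to -2.64. From nB to GCB the change of -1.55 and -1.66 did not pass (adjusted p = 0.315 and 0.295) although the 6 nB and 6 GCB libraries did not overlap. In fits of the nB and GCB libraries of a genotype alone, Cd200 passed in this step (adjusted p = 0.00531 and 0.0154). It also passed with quality weights (0.00783 and 0.00452) and with voom on the recovered reads (0.0424 and 0.0468), as did Epcam in sufficient cells in the same 3 fits.

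**Figure D2:**
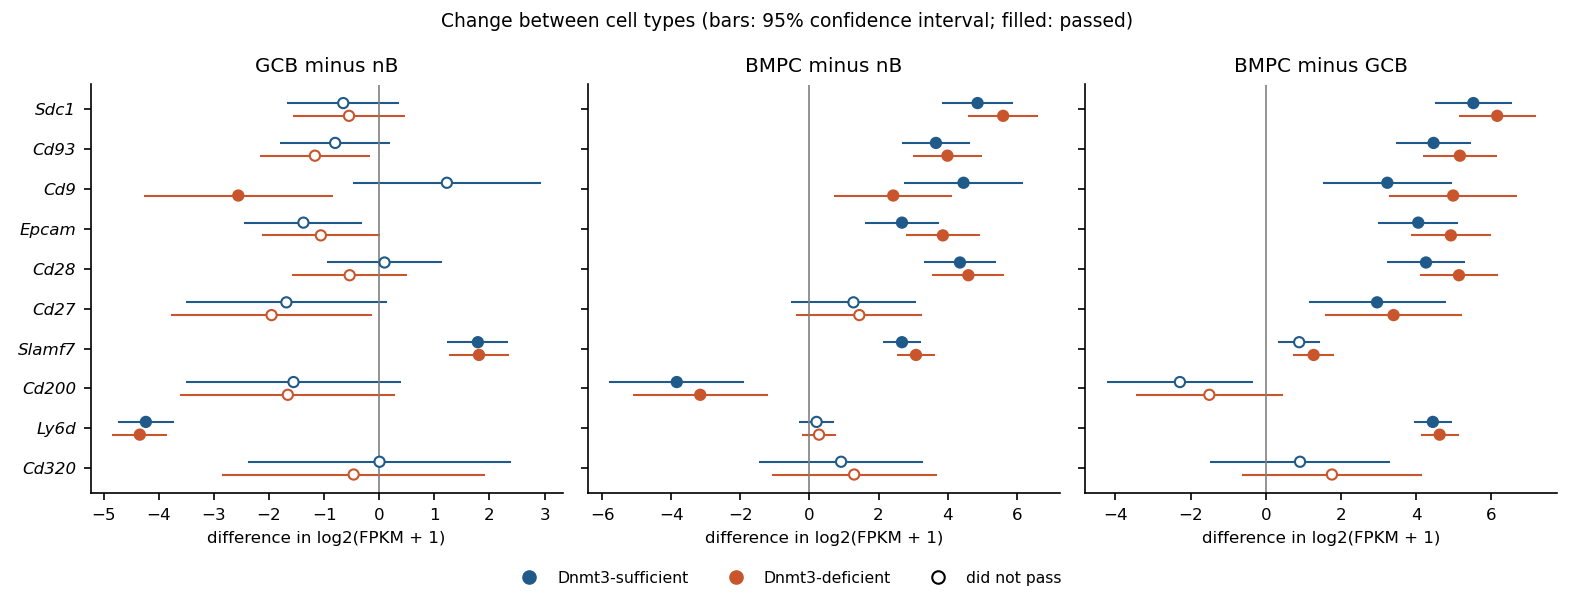
Differences in log2(FPKM + 1) between cell types for the 10 genes, with 95% confidence intervals from limma, Dnmt3-sufficient in blue and Dnmt3-deficient in orange; filled points passed. In the panel of BMPC minus nB, Sdc1, Cd93, Cd9, Epcam, Cd28 and Slamf7 are filled to the right of 0 in both genotypes, Cd200 is filled to the left, and Cd27, Ly6d and Cd320 are open.

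Ly6d had the highest level of the 10 genes and a dip in the germinal center. It encodes a small membrane-anchored protein of the Ly6 family that marks lymphoid progenitors committed to the B lineage. Ly6d was at 1678, 1701 and 1477 FPKM in sufficient nB and 1478, 1689 and 1507 in deficient nB. In GCB it was 54.0, 85.6 and 132, and 55.2, 85.0 and 92.0. In BMPC it was 1968, 1753 and 1879, and 1850, 2158 and 1682. By mean level it ranked 19 and 22 among all genes in sufficient and deficient nB, and 46 and 37 in BMPC. It fell 17.9-fold from nB to GCB in sufficient cells (-4.23 ± 0.24, adjusted p = 5.18e-09) and 20.1-fold in deficient cells (-4.34 ± 0.24, adjusted p = 6.65e-09). BMPC were 20.6-fold and 24.5-fold above GCB (adjusted p = 1.55e-09 and 7.55e-10). The difference between BMPC and nB was 0.21 ± 0.24 and 0.28 ± 0.24 (adjusted p = 0.517 and 0.368) and did not pass.

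Cd320, the receptor through which cells take up vitamin B12 bound to transcobalamin, did not pass in any of these comparisons. Cd320 was at 0.0676, 3.43 and 6.14 FPKM in sufficient nB and 5.95, 0 and 3.49 in deficient nB. GCB had 3.36, 1.42 and 2.25, and 0.326, 3.02 and 1.23. BMPC had 0, 21.8 and 8.98, and 0.832, 26.4 and 8.19. Libraries of each BMPC group thus ran from at or near 0 to above every nB and GCB library. In the sufficient BMPC library at 0, 3 reads would have given 0.618 FPKM. The change from nB to BMPC was 0.92 ± 1.13 (adjusted p = 0.548) and 1.29 ± 1.13 (adjusted p = 0.379), with the largest standard error of the 10 genes.

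Loss of Dnmt3a and Dnmt3b was then compared within each cell type. None of the 10 genes passed in nB, GCB or BMPC, where 0.0521%, 0% and 3.98% of all tested genes did. At an unadjusted limma p under 0.05 there was 1 of the 10 in nB (Cd9, of 312 genes), 0 in GCB (of 124) and 1 in BMPC (Cd28, of 2342). No gene of the 10 passed in a test of whether the genotype change differed between cell types either. Those tests called 0% of all genes for GCB against nB, 0.555% for BMPC against nB and 0.425% for BMPC against GCB.

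In BMPC the estimates for all 10 genes were above 0, with a median of 0.67, whereas 40.1% of all tested genes were above 0, with a median of -0.05. With median of ratios scaling the median of all tested genes was 0. The 10 estimates come from the same libraries and are not independent of each other. Those of Cd200, Cd320 and Ly6d fell below 0 when certain single libraries were left out. Cd28 was the gene whose genotypes did not overlap, at 26.1 ± 2.93 FPKM in sufficient and 62.4 ± 8.53 in deficient BMPC (SD, n = 3 each), a ratio of 2.39. Its log2 change was 1.22 ± 0.49 (95% interval 0.18 to 2.27, limma adjusted p = 0.162). Deficient libraries were all above sufficient ones in 3.02% of the tested genes and all below in 7.31%, against 1 and 0 of the 10. The other estimates ran from 1.29 ± 0.86 (Cd27, adjusted p = 0.435) through 1.11 ± 0.81 (Cd9), 0.76 ± 0.51 (Epcam), 0.64 ± 0.47 (Cd93) and 0.62 ± 0.48 (Sdc1) to 0.02 ± 0.24 (Ly6d). The interval of Ly6d, from -0.48 to 0.52, and that of Slamf7, from -0.36 to 0.74, stayed within 1 of 0. That of Cd320, from -2.04 to 2.72, was too wide to show a change of this size.

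In nB, Cd9 differed by 3.15 ± 0.81 between the genotypes (95% interval 1.43 to 4.86, adjusted p = 0.433). The lowest deficient library, at 12.7 FPKM, was below the highest sufficient one, at 13.4. Without that sufficient library, replicate 2, both remaining ones were at 0 and the difference passed (4.43, adjusted p = 0.00910). Erythroid markers also differed between these libraries, with summed FPKM of 11.7, 61.1 and 131 in deficient nB and 0, 0.808 and 0.225 in sufficient nB. Jchain, a plasma cell transcript, was at 113 FPKM in deficient nB replicate 2, the library highest in Cd9, and at 0.119 or less in the other 5. Their part in the level of Cd9 was not tested. In nB the genotypes were separated in none of the 10 genes, against 4.66% of tested genes with deficient libraries all above and 4.17% all below. In GCB, Slamf7 was lower in every deficient library (71.8, 74.2 and 73.1 FPKM) than in every sufficient library (80.6, 82.2 and 88.4), a log2 difference of -0.19 that did not pass, which held for 5.05% of tested genes, with the converse in 5.58% and in 0 of the 10.

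**Figure D3:**
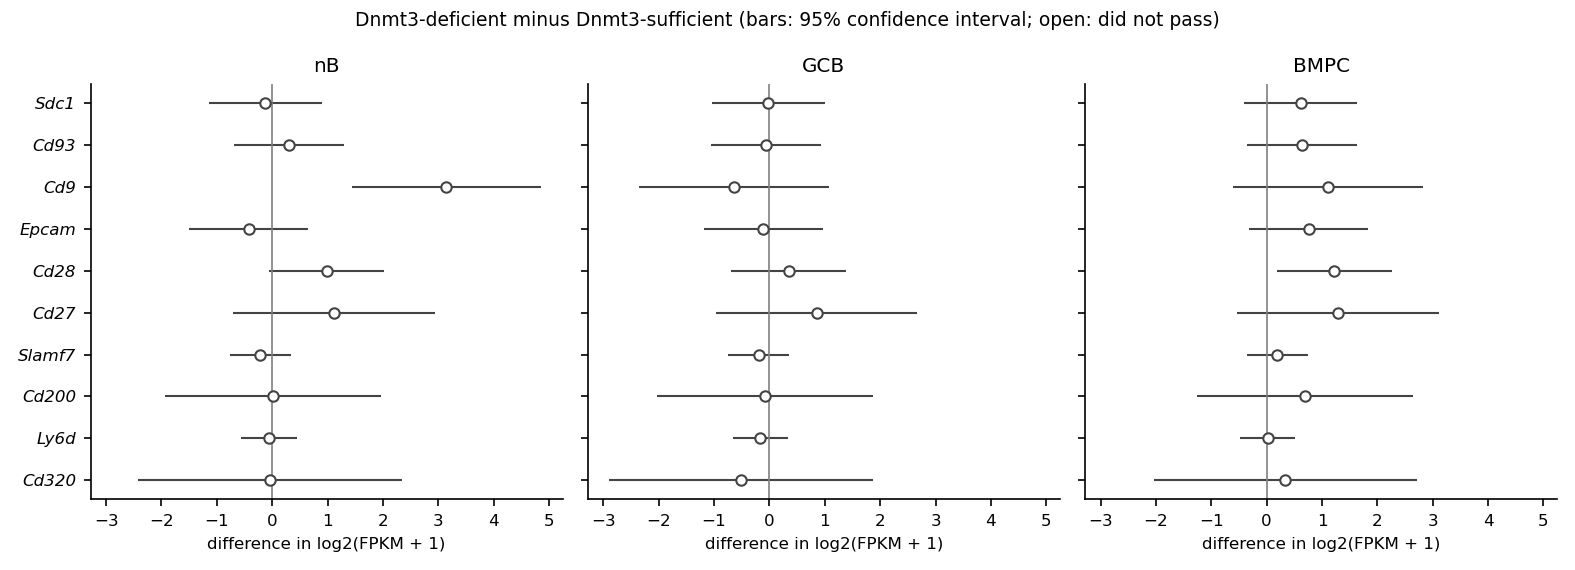
Differences in log2(FPKM + 1) between Dnmt3-deficient and Dnmt3-sufficient cells for the 10 genes in nB, GCB and BMPC, with 95% confidence intervals from limma; open points did not pass. All 10 points lie above 0 in BMPC, though the interval of Cd28 alone leaves out 0 there, and Cd9 in nB stands apart at 3.15.

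Markers of other cell types varied among the BMPC libraries. The 7 neutrophil genes in the table were at 0 in every nB and GCB library, and their summed FPKM was 526, 63.4 and 141 in the 3 sufficient and 9.37, 582 and 535 in the 3 deficient BMPC libraries. Camp, Elane and Ltf were at 0 in deficient BMPC. Monocyte, macrophage and dendritic cell markers summed to 22.0, 25.1 and 63.4, and 10.4, 96.6 and 117, with Cd14 at 0 in all. In nB the sums of this second list ran from 23.9 to 119. Deficient replicates 2 and 3 were thus the highest BMPC libraries in both lists and also had the highest Sdc1, Cd93 and Cd9 of them. Sufficient replicate 1, at 526 in neutrophil markers, had the lowest Cd93 (24.9 FPKM) and Cd9 (36.3 FPKM) of the BMPC libraries. Erythroid markers summed to 581, 585 and 1320, and 491, 183 and 118. Early B cell markers summed to 678 to 798 and 379 to 800, against 182 to 275 in nB and 263 to 378 in GCB. Among them, Dntt had means of 413 and 357 in sufficient and deficient BMPC, against 8.77 and 5.87 in nB. Vpreb3 had 287 and 136 against 244 and 212. Igll1, Rag1, Rag2 and Vpreb1 had means of 22.9 or less in BMPC and 1.02 or less in nB. Megakaryocyte markers summed to 6.05 or less, with Gp1bb, Gp9, Pf4 and Ppbp at 0. Endothelial, stromal and epithelial markers stayed at 24.5 or less, with Cdh5, Kdr and Krt8 at 0, Pecam1 at up to 16.9, Cxcl12 at up to 22.0 and Krt18 at up to 3.69. The part of such cells in the levels of the 10 genes was not tested beyond leaving libraries out.

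Without the 3 BMPC libraries highest in neutrophil markers (sufficient 1, deficient 2 and 3) the same number, 7 of the 10, passed between BMPC and nB in sufficient cells and 5 passed in deficient cells, where Cd9 (1.62, adjusted p = 0.321) and Cd200 (-1.56, adjusted p = 0.180) were lost. Against GCB 7 passed in each genotype, with Cd27 lost in both (adjusted p = 0.0660 and 0.0706) and Cd200 lower in sufficient cells (-3.08). Between the genotypes 1 gene, Cd200, then passed in BMPC (3.09, adjusted p = 0.0428), in a fit with 1 deficient BMPC library that is assumed to vary like the other groups. Cd28 remained at 1.05 (adjusted p = 0.397), while Cd9 was at 0.05, Cd93 at -0.17 and Sdc1 at -0.48.

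**Figure D4:**
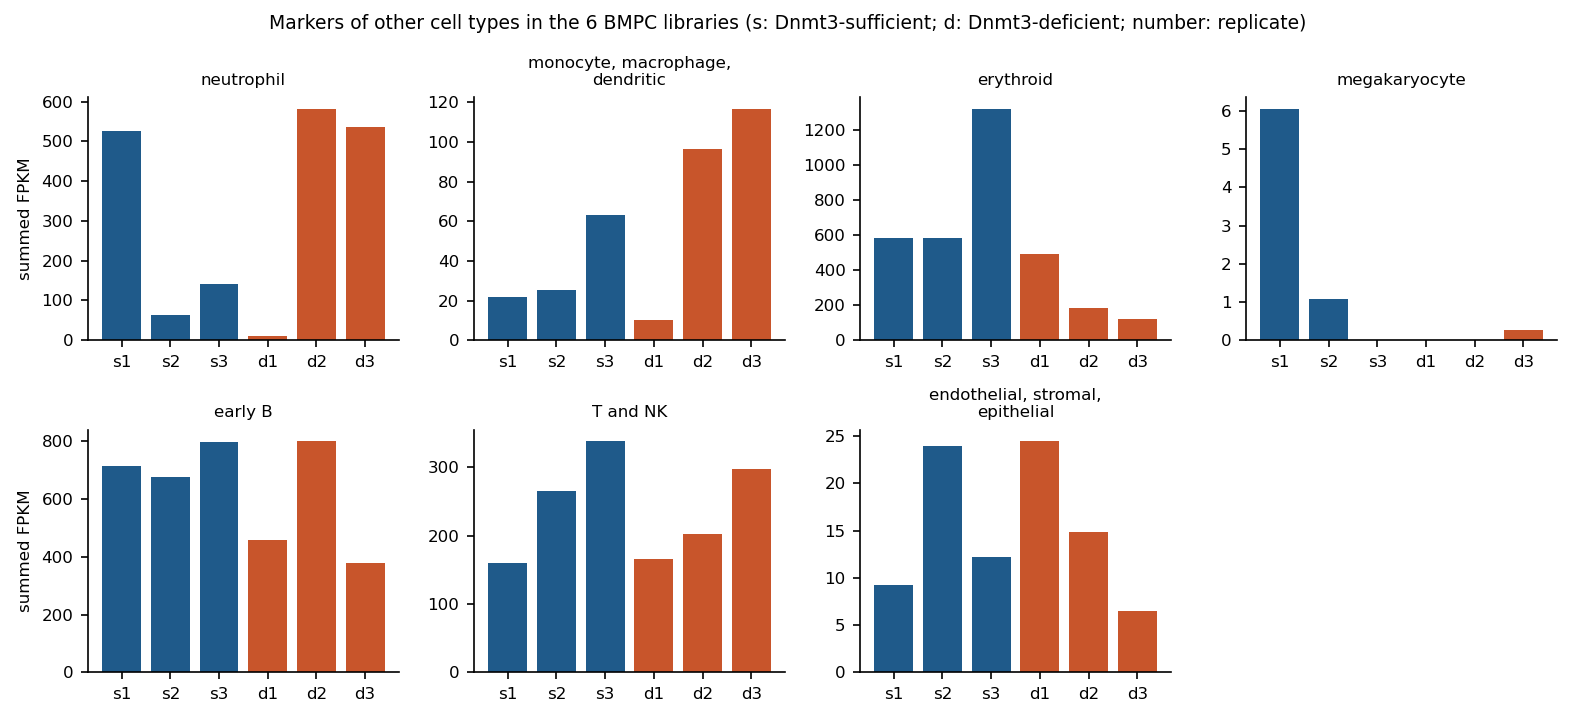
Summed FPKM of marker genes of 7 other kinds of cells in each of the 6 BMPC libraries, Dnmt3-sufficient (s) in blue and Dnmt3-deficient (d) in orange, numbered by replicate; each bar is 1 library and each panel has its own scale from 0. Neutrophil markers are high in s1, d2 and d3 (526, 582 and 535) and lowest in d1 (9.37).

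Ligands, adaptors and relatives of the 10 proteins changed in both directions. Of 66 such genes listed, 58 were tested, and 9 were higher and 17 lower in BMPC than in nB in sufficient cells, with 8 and 19 in deficient cells. These are 15.5% higher and 29.3% lower in sufficient cells, where 9.74% and 27.6% of all tested genes were, and 13.8% and 32.8% in deficient cells, where 6.85% and 30.6% were. In the Ly6 family 4 of 5 tested genes were higher in both genotypes. Ly6c2 was at 33.0, 35.4 and 139 FPKM in sufficient nB and 1516, 1162 and 976 in sufficient BMPC (4.43 ± 0.56, adjusted p = 1.39e-05). Ly6a, the Sca-1 antigen, Ly6c1 and Ly6k also rose. Ly6c1 and Ly6c2 are near-identical copies, so their shares are uncertain. In the SLAM family 4 of 9 tested genes fell in each genotype and none rose. Slamf1, a receptor of activated lymphocytes, went from 47.0, 48.7 and 50.8 FPKM in sufficient nB to 0.268, 0 and 0 in BMPC (log2 change -5.52, adjusted p = 1.70e-08).

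Of the 4 tested ligands and relatives of CD28, 1 rose and 1 fell in sufficient cells and 1 fell in deficient cells. Icos, a costimulatory receptor related to CD28, was the gene that rose, from 0 in sufficient nB to 23.2, 16.9 and 2.88 FPKM in sufficient BMPC (3.57 ± 0.82, adjusted p = 0.00266), and it was at 9.60, 0 and 0 in deficient BMPC. Cd86, a ligand of CD28 on B cells, was lower in BMPC (log2 change -5.24 in sufficient and -3.04 in deficient cells). Of the 4 tested genes around CD27, 1 rose in each genotype, and 1 fell in sufficient and 2 in deficient cells. Cd70, the ligand, was at 0 in every nB and BMPC library. Traf5, an adaptor of CD27, fell by 4.79 and 4.40 on the log2 scale, while Siva1, which binds the tail of CD27, rose by 2.48 and 1.37. Of 9 tested tetraspanins and partners of CD9, 1 rose in each genotype, and 2 fell in sufficient and 3 in deficient cells. Cd37, a tetraspanin of mature B cells, was among those that fell (-3.75 and -2.97). Of 9 tested enzymes of heparan sulfate synthesis, which build the chains on syndecan-1, none rose and 2 fell in sufficient and 1 in deficient cells.

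Of 11 tested genes of vitamin B12 transport and use, 3 passed between the genotypes in BMPC, 1 higher and 2 lower in deficient cells, where 3.98% of all tested genes passed, and the other 8 did not. Tcn2 encodes transcobalamin, the carrier that CD320 binds. Tcn2 was at 29.7, 56.7 and 21.6 FPKM in sufficient BMPC and at 0 in all 3 deficient BMPC libraries. In nB it was 8.27, 11.6 and 8.09 in sufficient and 16.3, 17.4 and 20.7 in deficient libraries, and in GCB it was at 0 in 5 of 6 libraries and at 1.72 in 1 sufficient library. The genotype difference in BMPC was -5.10 ± 0.47 on the log2 scale (adjusted p = 8.34e-06), a size that depends on the 1 added to each FPKM since deficient BMPC were at 0. It differed from that in nB (-6.00 ± 0.67, adjusted p = 0.000144). Tcn2 was higher in BMPC than in nB in sufficient cells (1.75, adjusted p = 0.00781) and lower in deficient cells (-4.25, adjusted p = 4.05e-06). Mtr, methionine synthase, which uses the vitamin as a cofactor, was lower in deficient BMPC, at 0, 0.171 and 0.103 FPKM against 1.27, 2.75 and 5.76 (adjusted p = 0.0409). Lmbrd1, which exports the vitamin from lysosomes, was higher, at 21.2, 35.3 and 38.5 against 18.5, 12.0 and 8.16 (adjusted p = 0.0420). Thbd, a relative of CD93, was the only other gene of the 58 that passed, at 3.79, 26.6 and 15.5 against 3.18, 0 and 2.74 (adjusted p = 0.0228). In a fit of the 6 BMPC libraries alone none of these 4 passed (adjusted p = 0.647 for Tcn2, 0.711 to 0.779 for the others).

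The 10 genes resembled one another in part. Over the 18 libraries, which share their cell types, Sdc1 correlated in log2(FPKM + 1) with Cd93 (Pearson's r = 0.977), Cd28 (0.960) and Epcam (0.952), and Slamf7 ran against Cd200 (-0.725). Among all tested genes, those most like Sdc1 were Selm (0.989), Fut1 (0.985) and Rprl1 (0.985). Cd28 was most like Ly6i (0.977), Spcs3 (0.966) and Selm (0.965), and Cd93 most like Ftl1 (0.982), Ly6c1 (0.979) and Tmed10 (0.976). Epcam was nearest to B2m (0.969), Rbm47 (0.963) and Rprl1 (0.959), and Slamf7 to Asns (0.961), Cbx3 (0.959) and Sod1 (0.957). Cd200 was nearest to Nfkbie (0.979), Fbxo38 (0.963) and Akap8 (0.942). Neighbours are named for the 7 of the 10 genes that passed between BMPC and nB, and of these Cd9 had the weakest, H13 (0.885), Serpina3f (0.882) and Bet1 (0.868). These values describe a pattern set mostly by the 3 cell types.

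The genes are spread over the genome, with coordinates on mm9 from the GENCODE annotation. The printed promoter windows end at RefSeq starts instead, so those of Sdc1, Cd9 and Slamf7 reach into the positions given here. Cd28 (1:60773644-60830203, plus strand) and Slamf7 (1:173562534-173579149, minus) share chromosome 1, and Cd27 (6:125182640-125187028, minus) and Cd9 (6:125410284-125444809, minus) lie close together on chromosome 6. Epcam (17:88035319-88050446, plus) and Cd320 (17:33980036-33986719, plus) are on chromosome 17. The others are Cd93 (2:148262376-148269299, minus), Sdc1 (12:8778129-8800521, plus), Ly6d (15:74592486-74593997, minus) and Cd200 (16:45382248-45409166, minus). Values are for all exons of a gene. Cd27 also overlaps Vamp1 on the opposite strand, but their exons do not overlap.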

How the data were processed

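RNA of sorted cells (5000 per sample, with CD11b, CD11c, CD90.2 and Ly6-G stains used to remove other cells) was amplified as SMART-Seq cDNA, made into Nextera libraries and sequenced as read pairs. The authors mapped the pairs with TopHat to mm9, at most 1 hit each, counted them over exons of UCSC known genes in R, and deposited 1 table of FPKM values with exon lengths. The submitters' processing notes name R 3.2.2, edgeR 3.12.1 and Picard. The table also holds fold changes, p-values and other results of the authors' comparisons, which were not used. FPKM times exon length gave whole reads for 100% of values (within 0.05), with depths of 1355231 to 8987922 reads per library. Limits at 3 reads cover counting error only. Apart from Igll1, Vpreb1 and Vpreb3 of the early B cell markers, no gene of an immunoglobulin heavy or light chain was analysed by name here.

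Groups and replicate numbers came from the labels. The deposited FPKM were put on the scale log2(FPKM + 1) and fitted with limma 3.58.1 (trend, R 4.3.3) over all 18 libraries with 1 mean per group, for the 11522 genes above 1 FPKM in at least 2 libraries. The pseudocount of 1 understates the change of low genes. Adjusted p are Benjamini-Hochberg values over these genes, two-sided, for 6 cell type comparisons, 3 genotype comparisons and 3 interactions. Labels do not say whether replicates were separate sorts in every group, so p-values rest on the spread between these samples only. Each group had both sexes. That spread was 1 value per gene, shared by all 18 libraries and so also by groups not compared. Quality weights, lower for more variable libraries, were 0.211 to 0.357 in BMPC and 1.03 to 4.24 in nB and GCB. The BMPC spread thus enters p-values between nB and GCB, and the smaller spread of nB and GCB enters those within BMPC. The script was tested on simulated data. The members and gene lists were chosen with earlier results of these data known. Named are the 10 genes, listed partners, ligands, relatives and markers that passed, and the 3 nearest genes of each of the 10 that passed between BMPC and nB. Python 3.11.15, numpy 2.4.6, pandas 2.3.3 and matplotlib 3.10.9 served the rest. Alternatives were another pseudocount, filter, scaling, threshold or covariate, fits of the compared groups, quality weights, voom on the recovered reads, left-out libraries, and, chosen after seeing the data, leaving out the 3 BMPC libraries highest in neutrophil markers. The driver of Cre is not reported here.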

Additional observations from a re-analysis of the deposited data

How the results depend on the processing

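Of 120 changes of the 10 genes, 34 passed, and none of these turned sign in any of 31 alternatives, 27 of them passing in every one. The exceptions were Cd200 between BMPC and nB in both genotypes, Cd27 between BMPC and GCB in both, and Cd9 in 3 comparisons. The pseudocount of 0.1 ended the call of Cd9 in GCB against nB (adjusted p = 0.217) and in BMPC against nB (0.151) in deficient cells and in BMPC against GCB in sufficient cells (0.0622). Cd200 between BMPC and nB was lost with the compared groups alone (adjusted p = 0.0509 in sufficient, 0.0876 in deficient cells). Of 63 other changes that passed nowhere, 36 turned sign in at least 1 alternative. The cause of these differences was not tested.

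From nB to GCB, 2 of the 10 passed in sufficient cells, and 5 with the compared groups only, 5 with quality weights and 5 with voom on recovered reads. In deficient cells 3 passed, against 5, 6 and 5. Between genotypes in BMPC, 0 passed, and 1 without the 3 BMPC libraries highest in neutrophil markers. There the change turned to -0.48 for Sdc1, -0.17 for Cd93 and -3.04 for Cd320. Ly6d turned to -0.011 with quality weights and -0.00577 with voom. When single libraries were left out, Ly6d ran from -0.080 to 0.0999, Cd320 from -0.96 (without sufficient replicate 1; -0.57 without deficient replicate 2) to 1.38, and Cd200 from -0.50 (without sufficient replicate 3; -0.10 without deficient replicate 1) to 1.90.

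Counts of the 10 over such left-out libraries were 7 to 8 (BMPC against nB, sufficient), 5 to 7 (deficient), 7 to 7 and 8 to 8 (against GCB), 2 to 3 and 2 to 2 (GCB against nB), 0 to 1 (genotype in nB), and 0 for genotype in GCB and BMPC and for the interactions. Of the partners, 4 passed by genotype in BMPC, against 0 with the groups alone, 1 with quality weights, 2 with voom, 7 with no minimum change, 1 at an adjusted p of 0.01, and 3 to 12 with libraries left out. From nB to BMPC the partners' count of 26 in sufficient cells became 17 with the groups alone (20 to 24 with libraries left out), and 27 in deficient cells became 16 at an adjusted p of 0.01 (20 to 25). The other surface genes went from 9 to 5 and from 10 to 5 with the groups alone (7 to 9 and 7 to 10 with libraries left out), and by genotype in BMPC from 0 to 1 with voom, 3 without the 3 libraries high in neutrophil markers, and 0 to 1 with libraries left out.

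Median of ratios scaling moved the median of all genes from -0.84 to -0.68 (BMPC against nB, deficient), from -0.73 to -0.55 (BMPC against GCB, deficient) and from -0.159 to -0.051 (genotype in BMPC less that in nB). It moved the split of genes by genotype in BMPC from 154 higher and 305 lower to 193 and 239, with Slamf7 then passing between BMPC and GCB in sufficient cells (1.03). Labels of the GCB samples match each sufficient sample with a deficient one, and whether these were pairs is not known. After group means were removed, matched samples correlated at -0.0000806, -0.0171 and 0.0257, and the others at -0.0600 to 0.0632. With 3 samples per group, these values cannot decide whether the samples were paired. With the matched labels as a block, the count of the 10 that passed by genotype in GCB was 0. Depth limits BMPC most, where 3 reads gave up to 0.618 FPKM for a gene at 0.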

Other observations

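Of 20 genes of other surface proteins known on plasma cells, 19 were tested, and 3 were higher and 6 lower in BMPC than in nB in Dnmt3-sufficient cells, with 5 higher and 5 lower in Dnmt3-deficient cells. These are 15.8% higher and 31.6% lower in sufficient cells, where 9.74% and 27.6% of all tested genes were, and 26.3% and 26.3% in deficient cells, where 6.85% and 30.6% were. Tnfrsf17 encodes BCMA, a receptor for survival ligands of plasma cells. It was at 0 FPKM in all 6 nB libraries, at 465, 482 and 173 in sufficient BMPC and at 523, 516 and 518 in deficient BMPC (limma log2 change 8.41 ± 0.50, adjusted p = 3.68e-09, and 9.02, adjusted p = 2.11e-09). Cd44, an adhesion receptor for hyaluronan, rose by 1.54 and 2.00 on the log2 scale, and Slc3a2, the CD98 heavy chain of amino acid transporters, by 1.31 and 2.34. Cd38, an enzyme that is high on human plasma cells, was lower. It stood at 190, 159 and 159 FPKM in sufficient nB, at 2.92, 5.15 and 5.09 in sufficient GCB, and at 7.30, 0 and 2.58 in sufficient BMPC (log2 change from nB to BMPC -5.78). In deficient BMPC Cd38 was at 14.1, 0 and 30.6 FPKM (log2 change -4.34). None of the 19 passed between the genotypes in BMPC.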
